A study of Homo sapiens with 2 samples.

Results

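The cystine transporter SLC7A11 and 9 further genes of glutathione, redox and iron homeostasis were examined in a map of the RNA sites touched by the RNA-binding protein RBM47. Members were the rows of the deposited cluster table whose gene symbol was SLC7A11, SLC3A2, GCLC, GCLM, TXNRD1, NFE2L2, HMOX1, FTH1, FTL or TFRC. They came to 482 of 233546 clusters, in 9 of the 10 genes. HMOX1 had no cluster in the table, and 7712 genes in all had at least 1. The map was made in MDA231-BrM2a, a non-clonal brain metastatic derivative of the human breast cancer line MDA-MB-231. A tet-on transgene supplied wild-type RBM47 with a Flag tag, induced over 3 days with doxycycline at 1 ng/ml, so the protein mapped was the introduced one. HITS-CLIP crosslinks proteins to the RNA they contact by ultraviolet irradiation, recovers the tagged protein with its RNA, and sequences the fragments. Unique reads are called tags, and overlapping tags form a cluster.

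The libraries formed a single group with 2 replicates and no control library, so no conditions were compared and no level of unspecific recovery was available. The labels do not say whether the replicates came from separate cultures, so their spread may be technical. Replicate 1 held 999047 tags and replicate 2 3489697, a ratio of 3.49, and each cluster was thus measured less precisely in replicate 1. The table lists clusters with at least 1 tag in each replicate and 5 in total, so a gene without a cluster may still have had tags. More of a transcript and more contacts per transcript cannot be told apart in these data. Genes typical of MDA-MB-231 were well represented, with 3327 tags for the mesenchymal filament VIM and 8404 for the adhesion receptor CD44. The other mesenchymal markers read, CAV1 and AXL, had 2335 and 3232 tags. ESR1, PGR, GATA3 and CDH1, genes of luminal or receptor-positive tumors, had no cluster, and the epithelial EPCAM had 11 tags.

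As background, SLC7A11 and SLC3A2 form the exchanger that brings cystine into the cell in return for glutamate. Cystine is reduced to cysteine, which GCLC and GCLM, the catalytic and modifier subunits of glutamate-cysteine ligase, join to glutamate in the limiting step of glutathione synthesis. TXNRD1 reduces thioredoxin, NFE2L2 (the protein NRF2) is the transcription factor that drives many of these genes under oxidative stress, and HMOX1 breaks down heme and releases iron. TFRC imports transferrin-bound iron, and FTH1 and FTL are the heavy and light chains of the iron store ferritin. Iron-regulatory proteins act on the ferritin and TFRC mRNAs through a hairpin, the iron-responsive element. In the ferritin 5′UTRs it blocks translation, and in the TFRC 3′UTR it protects the mRNA from decay.

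These hairpins are shown because clusters of FTH1, FTL and TFRC carried the labels of the regions that hold them. The search took, on the transcript strand, a C, 5 bases, the 6-base loop CAGTGN and 5 bases, with the 5 bases on either side able to pair (G with T allowed, at least 3 Watson-Crick pairs). Of 18922 GENCODE MANE Select transcripts, 16 (0.0846%) had a match in the 5′UTR and 102 (0.539%) in the 3′UTR. No other member had a match in either region, and a match is a description of the letters only. Hairpins with another loop would not be found, so the matches need not be all the elements of a transcript. Capitals mark the loop, and each sequence is given 5′ to 3′ in DNA letters.
FTH1 5′UTR: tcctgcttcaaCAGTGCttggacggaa
FTL 5′UTR: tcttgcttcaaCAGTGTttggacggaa
TFRC 3′UTR, element 1: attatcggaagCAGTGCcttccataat
TFRC 3′UTR, element 2: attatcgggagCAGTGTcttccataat
TFRC 3′UTR, element 3: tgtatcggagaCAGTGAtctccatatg
TFRC 3′UTR, element 4: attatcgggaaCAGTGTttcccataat
On GRCh37, the FTH1 element spans 61735047 to 61735073 of chromosome 11 (minus strand) and the FTL element 49468593 to 49468619 of chromosome 19 (plus strand). The TFRC elements lie on the minus strand of chromosome 3, between 195777335 and 195777877. The clusters are on another build (the submitters' processing notes name hg18), no coordinates were converted, and the hairpins were therefore not placed on the clusters.

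SLC7A11 (Entrez gene 23657) dominated the group. In clusters of at least 10 tags it had 18859 tags, ranked 8 among the 5600 genes with such clusters, and held 64.4% of the members' 29263 tags. TXNRD1 (gene 7296) followed with 4273 tags at rank 75 and TFRC (gene 7037) with 4096 tags at rank 84. GCLM had 576 tags, NFE2L2 508 and GCLC 447. The fewest were seen in FTH1 with 215 tags, SLC3A2 with 158 and FTL with 131. The median rank of the 9 genes was 1269, against 2796 for all genes with such clusters. All 9 passed the study's mark of more than 100 tags, as did 39.9% of the 7712 genes with a cluster (3074 genes). The paper reports fewer transcripts above that mark, for a reason that was not tested. Members that passed here need not all be among them. Genes were proposed for this group with such values in view, so the count of 9 and the median rank are descriptions. The median rank leaves out HMOX1, which had no cluster.

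**Figure D1:**
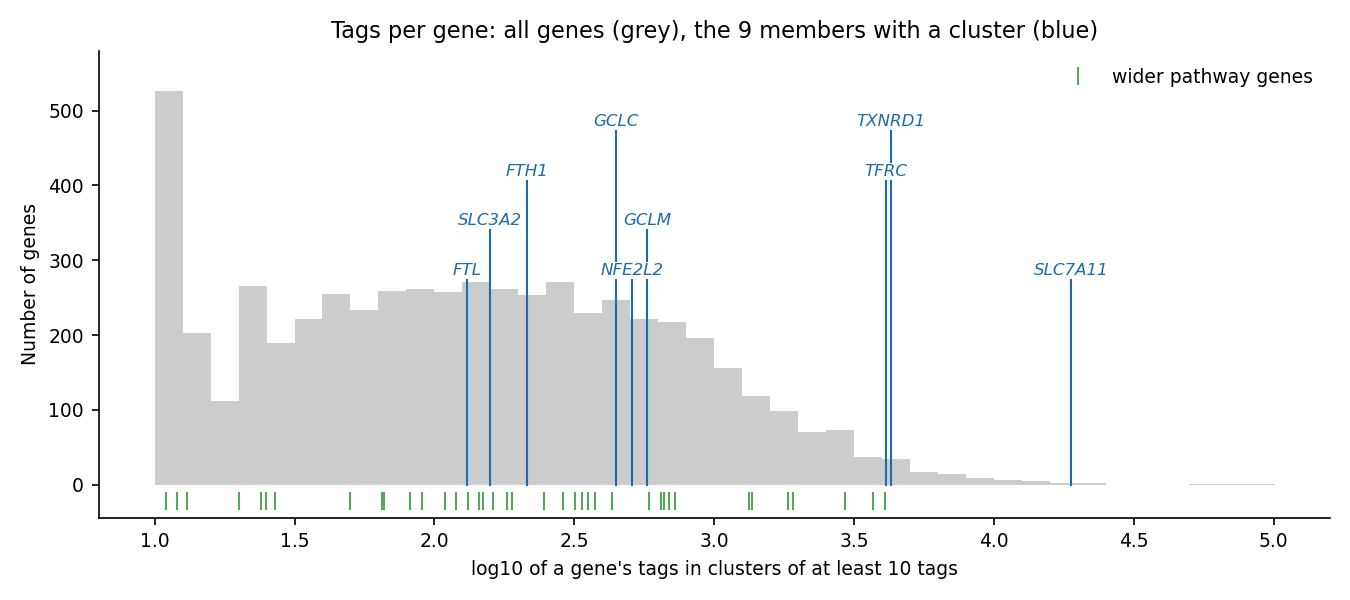
Distribution of tags per gene on a log10 scale for the 5600 genes with a cluster of at least 10 tags (grey bars, number of genes), with the 9 members as blue lines and 41 genes of a wider pathway list as green ticks. SLC7A11, with 18859 tags, lies in the far right tail, and FTL, with 131, near the middle.

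The lead of SLC7A11 was seen in each library. It had 3955 tags in replicate 1 and 14971 in replicate 2, or 3959 and 4290 normalised tags, that is per 1000000 tags of that replicate (mean 4124 ± 234, SD, n = 2). TXNRD1 had 877 and 978 normalised tags (927 ± 71.6) and TFRC 774 and 952 (863 ± 126). The ranges of TXNRD1 and TFRC overlapped, with TXNRD1 the higher in each library, and both lay well below SLC7A11. GCLM had 113 and 135, NFE2L2 97.1 and 120, and GCLC 107 and 99.4. NFE2L2 overlapped both of the others, though it was below GCLM in each library, while GCLC lay below GCLM. FTH1 had 44.04 and 49.9, above SLC3A2 with 28.0 and 37.3 and FTL with 26.0 and 30.9. The ranges of SLC3A2 and FTL overlapped, with SLC3A2 the higher in each library. Values were higher in replicate 2 for all but GCLC. The scale itself favors replicate 2, since replicate 1 held 22.3% of all tags but 21.1% of those in clusters of at least 10 tags. The gene totals rank how much was captured from each transcript and are not corrected for length.

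Length was taken into account in the next step. Per kb of cluster, the highest density was in TFRC, with 171.5 and 211.1 normalised tags per kb in replicates 1 and 2. SLC7A11 had 158.0 and 171.3, just short of overlap with TFRC. TXNRD1 had 143.0 and 159.5, a range that overlapped SLC7A11, though SLC7A11 was the higher in each library. FTH1, GCLM, SLC3A2 and GCLC formed a middle group with means from 71.6 to 76.1, and each overlapped its neighbour in the order. FTL (51.0 and 60.7) and NFE2L2 (42.9 and 53.2) were lowest and overlapped each other, with FTL the higher in each library. Cluster length included introns, at 15779 of 25051 nt in SLC7A11 and 2149 of 6133 nt in TXNRD1, whereas TFRC had no intron cluster. By total tags, these intron clusters held 155 and 117 tags per kb. In clusters labelled 3′UTR alone, SLC7A11 had 2109 tags per kb, TXNRD1 1682 and TFRC 1356. In coding sequence the 3 genes had 414, 434 and 360. In clusters spanning coding sequence and 3′UTR they had 1995, 289 and 986. The order thus depended on the length used. Per kb of the reference mature transcript, with intron tags included, SLC7A11 led with 1955 tags per kb and rank 20 of 5273 genes, followed by TXNRD1 with 1107 and TFRC with 817. SLC3A2 was then last with 83.8. With 2 samples no exact permutation test between genes was informative, so none was made.

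**Figure D2:**
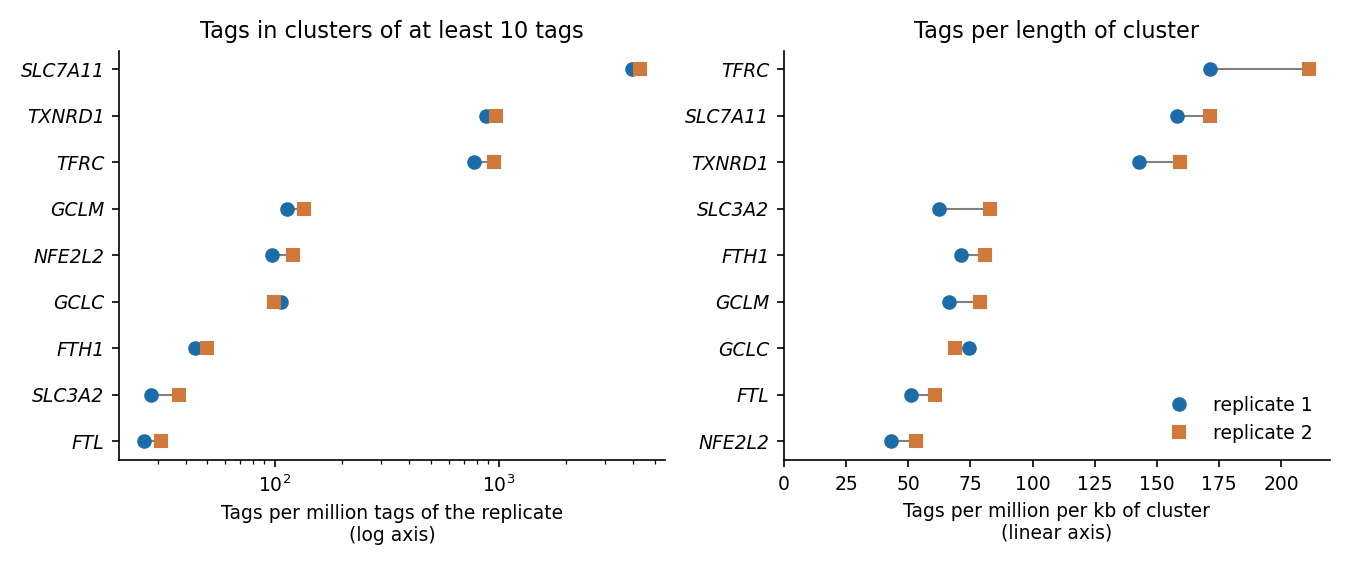
Left, tags per 1000000 tags of the replicate in clusters of at least 10 tags (log axis). Right, the same per kb of cluster length (linear axis), for replicate 1 (blue circles) and replicate 2 (orange squares). SLC7A11 is first on the left with 3959 and 4290, whereas TFRC is first on the right with 171.5 and 211.1. Cluster length on the right includes intron clusters, which TFRC lacks.

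The pair that forms the cystine exchanger was bound very unequally. SLC7A11 had 119-fold the tags of SLC3A2 (141-fold in replicate 1 and 115-fold in replicate 2). Per kb of cluster the ratio was 2.14 (2.54 and 2.07), with SLC7A11 covered over 25051 nt and SLC3A2 over 450 nt. Of the SLC7A11 length, 15779 nt lay in sparse intron clusters, and SLC3A2 had no intron cluster. In clusters labelled 3′UTR alone, density was 2109 tags per kb in SLC7A11 and 1128 in SLC3A2. In coding sequence it was 414 and 168. Per kb of reference transcript, with intron tags included, the values were 1955 and 83.8. SLC3A2 had 8 clusters, of which 5 reached 10 tags. Its largest, an 86 nt 3′UTR cluster (chromosome 11, plus strand, 62412820 to 62412906), held 19 and 78 tags, 61.4% of the gene's tags. The rest lay in coding sequence, with no cluster above 19 tags. The reference 3′UTR of SLC3A2 measures 167 nt, shorter than in 99.4% of the genes compared, while that of SLC7A11 measures 7859 nt and is exceeded in 4.84%. Of the 136 genes in the table named as solute carriers, SLC7A11 had the most tags, ahead of the amino acid transporters SLC38A1 with 13079 and SLC38A2 with 8357. SLC3A2 was at position 56.

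Most SLC7A11 tags lay in the 3′UTR. Clusters labelled 3′UTR alone held 67.4% of the tags (Wilson 95% interval 66.7 to 68.1), with 66.9% in replicate 1 and 67.5% in replicate 2. A further 15.9% lay in the cluster that spans the end of the coding sequence and the start of the 3′UTR, 13.0% in introns and 2.70% in coding sequence. Together, labels with 3′UTR held 83.3%, close to the median of 83.9% over genes with more than 100 tags. The intron share, by contrast, was 0% at the median of those genes.

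The 3′UTR of SLC7A11 was covered almost without interruption. Its 12 clusters with a 3′UTR label spanned 7934 nt on the minus strand of chromosome 4, from 139304702 to 139312636, of which 95.4% lay inside a cluster and the widest gap was 152 nt. The cluster at the stop codon, at 139311132 to 139312636, held 635 and 2365 tags. The next large one, at 139309651 to 139310867, held 676 and 2281 tags, and that at 139306564 to 139307749 held 586 and 2269. Farthest 3′, the cluster at 139304702 to 139306029 held 357 and 1533. Among the 10 clusters with more than 100 tags, density ran from 1417 tags per kb in the one farthest 3′ to 2889 in a 99 nt cluster. Between the stop codon cluster and the body of the 3′UTR lay a thin stretch, where clusters of 45 and 50 nt held 5 and 36 tags. The largest cluster held 15.9% of the gene's tags, the lowest such share of the 9 genes, and 33.7% when clusters closer than 50 nt were merged.

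SLC7A11 also had many small intron clusters. There were 227 with 3190 tags in all, ranked 64 by number and 44 by tags among the 4177 genes with intron clusters. Their median was 9 tags over 85 nt, and the largest held 23 and 73 tags at 139338769 to 139339248. They were unevenly spread along the gene. Counted from the 5′ end in 5 equal parts of the span, the parts held 187, 822, 1403, 461 and 317 intron tags, so the middle part held the most. Density over intron clusters of at least 10 tags was 155 tags per kb, against 2109 in the 3′UTR and 414 in coding sequence. Of the 11 coding clusters, the largest held 11 and 74 tags at 139319831 to 139319965. At the 5′ end, a cluster over 5′UTR and coding sequence held 25 and 103 tags.

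**Figure D3:**
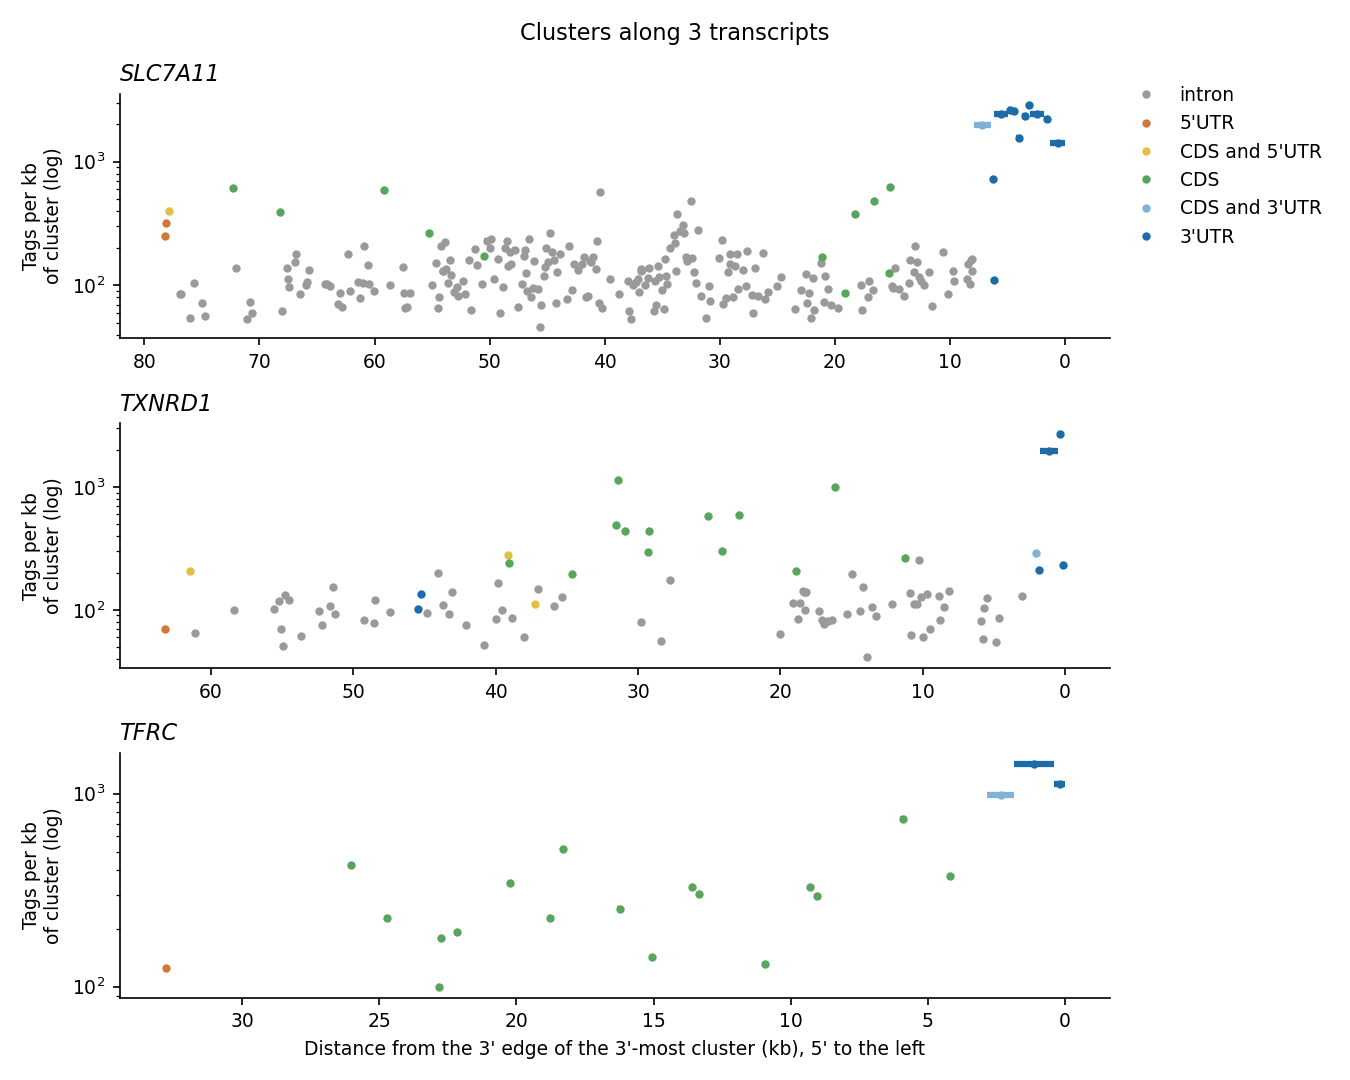
Tags per kb of cluster (log axis) for each deposited cluster of SLC7A11, TXNRD1 and TFRC, against the distance in kb from the 3′ edge of the 3′-most cluster, with the 5′ end to the left and colors for the location labels. The 3′UTR clusters at the right reach above 1000 tags per kb in all 3 genes, and intron clusters (grey) are numerous in SLC7A11 and TXNRD1 and absent in TFRC.

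By its shares of tags over the location labels, SLC7A11 was closest to TMOD3, GNG12 and AKAP2 among 649 other genes with at least 1000 tags. The distances, where 0 is an identical profile and 1 a disjoint one, were 0.067, 0.11 and 0.11. TMOD3 had 69.9% of its tags in 3′UTR alone and 15.2% in introns. This likeness rests on tags of both libraries together.

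In both subunits of glutamate-cysteine ligase most tags lay under labels with 3′UTR. In GCLC (gene 2729), the catalytic subunit, these held 97.8% of the tags in clusters of at least 10 tags, and the 7 clusters wholly in coding sequence had at most 9 tags each. The largest, in the 3′UTR (chromosome 6, minus strand, 53470320 to 53470678), held 30 and 101 tags. In GCLM (gene 2730), the modifier subunit, the largest cluster spanned coding sequence and 3′UTR (chromosome 1, minus strand, 94126529 to 94127161), with 49 and 211 tags. It held 45.0% of the gene's tags, and 3′UTR clusters held 44.6% and coding sequence 10.4%. Over all deposited clusters the coding share was 8.85% in GCLC (Wilson 95% interval 6.66 to 11.7) and 12.5% in GCLM (10.1 to 15.3), and the intervals overlapped. GCLM over GCLC was 1.06 in replicate 1 and 1.35 in replicate 2.

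For GCLM, tags without a gene ID adjoined the gene. The span of its 3′UTR clusters was 1843 nt, but the reference 3′UTR measures 3791 nt. Within 10 kb past its last 3′UTR cluster, 30 clusters on the same strand held 835 tags, more than the 609 tags given to GCLM over all its clusters. Of these, 9 clusters starting 199 nt to less than 2 kb away held 105 and 497 tags, with up to 140 tags each, and the 21 beyond held at most 27. These tags are not in the GCLM values above, and whether they belong to its 3′UTR was not tested. All 30 carried a label for sequence both within 10 kb downstream of a gene and within 10 kb upstream of another. In the same window past TXNRD1, 49 clusters without a gene ID held 205 and 752 tags, nearly all labelled downstream and 1 deep intergenic. The TXNRD1 clusters with a 3′UTR label near its 3′ edge spanned 2138 nt with the end of the coding sequence, against a reference 3′UTR of 1886 nt, and 2 faint ones with 5 and 7 tags farther upstream were left out of that span. SLC7A11 had 23 downstream clusters with 56 and 138 tags, none above 17.

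TXNRD1 tags were concentrated in fewer clusters than those of SLC7A11. Its 3′UTR cluster at 103266624 to 103267854 (chromosome 12, plus strand) held 468 and 1930 tags, 56.1% of the gene's tags, and the next, at 103267863 to 103268144, held 158 and 595. The 3′UTR alone held 75.9% of the tags (Wilson 95% interval 74.6 to 77.1) and introns 5.90%. Coding sequence held 15.4% in 13 clusters, of which the largest had 20 and 78 tags. Density was 1682 tags per kb of 3′UTR cluster and 434 in coding sequence. There were also 77 intron clusters, with 646 tags.

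NFE2L2 (gene 4780) had a large share of tags in coding sequence. In clusters of at least 10 tags it was 45.1% (Wilson 95% interval 40.8 to 49.4), with 43.3% in replicate 1 and 46.7% in replicate 2, against a median of 5.65% over genes with more than 100 tags. SLC3A2 had 38.6% (31.4 to 46.4), and these intervals overlapped. Over all deposited clusters the coding share of NFE2L2 was 30.5%, below the 46.1% of SLC3A2, and introns held 42.3% of NFE2L2 tags instead of 16.9%. Labels with 3′UTR held 38.0% in clusters of at least 10 tags, and 80.7% of genes with more than 100 tags had a higher share. The largest cluster, over the end of the coding sequence and the 3′UTR (chromosome 2, minus strand, 177803491 to 177803760), held 22 and 87 tags. A coding cluster at 177804533 to 177804742 held 15 and 67. Its reference 3′UTR of 477 nt is shorter than in 94.95% of the genes compared. Most of its intron clusters were faint, with a median of 7 tags. No cluster of HMOX1 was listed, so no level can be given for it.

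**Figure D4:**
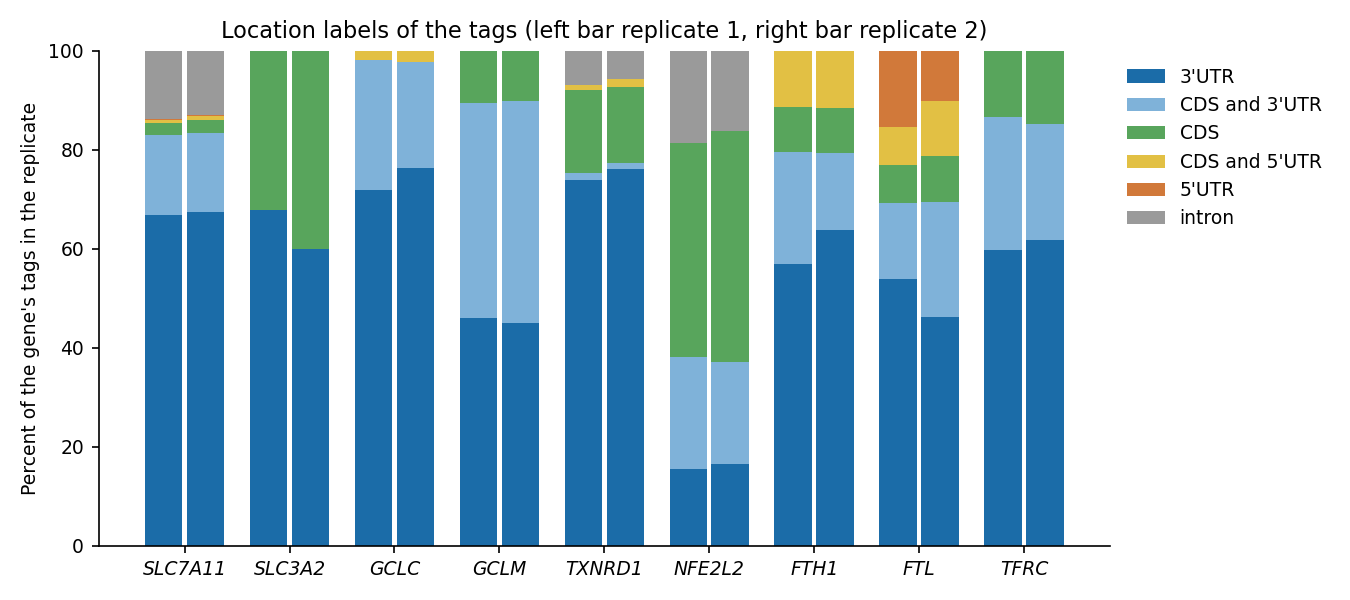
Percent of each gene's tags by location label in clusters of at least 10 tags, with replicate 1 as the left bar and replicate 2 as the right bar of each pair. NFE2L2 has the widest coding sequence segment at this tag minimum (43.3% and 46.7%), FTL has tags in 5′UTR, and SLC7A11, TXNRD1 and NFE2L2 have intron tags.

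Iron uptake and iron storage lay far apart in this map. TFRC had 773 and 3323 tags in replicates 1 and 2, FTH1 44 and 174, and FTL 26 and 108. TFRC over FTH1 was 19.1-fold in tags, or 2.61-fold per kb of cluster (2.40 and 2.61). The ratio to FTL was 31.3-fold, or 3.53-fold per kb of cluster (3.36 and 3.48). In both replicates TFRC was the higher.

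The 3′UTR of TFRC was covered by 3 abutting clusters on the minus strand of chromosome 3. The middle one, at 197260952 to 197262406, held 383 and 1685 tags, 50.5% of the gene's tags. That spanning the end of the coding sequence, at 197262408 to 197263408, held 207 and 779, and the one farthest 3′, at 197260552 to 197260952, held 79 and 367. Together they left 2 nt of a 2856 nt span uncovered. Measured from the 3′ edge of the last cluster, the middle cluster reached from 400 to 1854 nt. Measured from the 3′ end of the reference transcript, the 4 hairpins printed above lie between 1180 and 1723 nt. Whether the ends coincide was not tested. TFRC had 17 coding clusters and no intron cluster, and its largest coding cluster held 28 and 140 tags.

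The ferritin mRNAs gave few tags, with clusters under 5′UTR, coding and 3′UTR labels. FTH1 (gene 2495) had its largest cluster in the 3′UTR (chromosome 11, minus strand, 61488496 to 61488637), with 13 and 63 tags. A cluster over 5′UTR and coding sequence, at 61491444 to 61491565, held 5 and 20 tags. FTL (gene 2512) had its largest in the 3′UTR (chromosome 19, plus strand, 54161871 to 54161983), with 14 and 50 tags. Its 5′UTR cluster, at 54160445 to 54160544, held 4 and 11 tags, and the one over 5′UTR and coding sequence held 2 and 12. Clusters with a 5′UTR label thus made up 11.6% of FTH1 tags (Wilson 95% interval 8.001 to 16.6). In FTL, 5′UTR alone held 11.5% (7.06 to 18.0) and 5′UTR with coding sequence 10.7% (6.47 to 17.1). The reference 5′UTRs measure 209 nt in FTH1 and 199 nt in FTL. Both ferritin genes have near-identical processed copies elsewhere in the genome, and how reads with several matches were treated is not given in the sources used here. No other gene with a symbol starting FTH or FTL had a cluster.

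U content was read from the reference 3′UTRs as a feature that the choice of genes did not use. Among the members the U content ran from 25.0% in FTL to 37.0% in GCLC, and 34.7% in SLC7A11 was near the median of 33.8% over the 2933 genes compared. TXNRD1 (33.7%) and TFRC (33.6%) were near the median as well. Per kb of reference 3′UTR, SLC7A11 had 1999 tags under 3′UTR labels, TXNRD1 1749 and TFRC 1317, against a median of 125. Those values were exceeded by 1.19%, 1.43% and 2.28% of genes. GCLC had 309 and GCLM 136. The GCLM value was divided by the full reference 3′UTR of 3791 nt, while its 3′UTR clusters spanned 1843 nt. It leaves out the adjoining tags without a gene ID, so GCLM and GCLC are not ranked by it. Across the 2933 genes Spearman's rho between U content and tags per kb was 0.223 (genes are not independent and share both libraries). For 3′UTR length, which is also the divisor of this density, rho was -0.281. Whether U content or length bears on the members' values was not tested. The longest run of U, not corrected for 3′UTR length, was 11 bases in SLC7A11 and GCLC, 9 in GCLM and 8 in TFRC. It was 7 in TXNRD1 and NFE2L2, 6 in SLC3A2, and 5 in FTH1 and FTL. Runs of at least 5 U per kb of 3′UTR had a median of 4.999 over the genes compared. SLC7A11 (4.58), FTH1 (2.26) and TFRC (1.88) lay below this median. The other members with a cluster lay above it, among them GCLC (5.65), TXNRD1 (5.83) and GCLM (6.86).

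**Figure D5:**
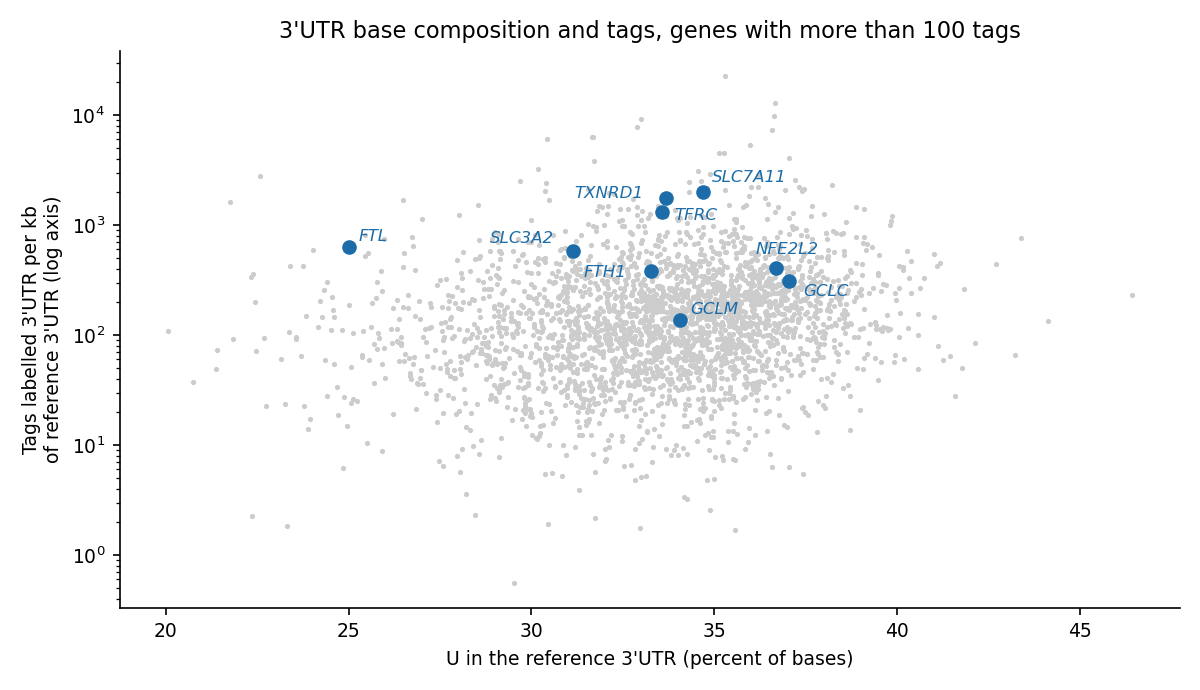
Tags under 3′UTR labels per kb of reference 3′UTR (log axis) against the percent of U in that 3′UTR, for genes with more than 100 tags and a value above 0 (grey) and the 9 members (blue). SLC7A11, TXNRD1 and TFRC lie high at 33.6% to 34.7% U, and FTL lies far left at 25.0%.

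The split between the libraries was then tested for every gene. Over the whole table replicate 1 contributed 22.3% of the tags. By the two-sided exact binomial test with Benjamini-Hochberg adjustment over 7712 genes, 131 genes (1.7%) departed from this share and 72 (0.934%) had a lower share in replicate 1, among them 2 of the 9 members. In this exact binomial test TFRC had a replicate 1 share of 18.9% (Wilson 95% interval 17.7 to 20.1, adjusted p = 7.8e-05) and SLC7A11 one of 21.1% (20.5 to 21.7, adjusted p = 0.0117). In 8 of the 9 genes the share was below 22.3%, with GCLC the exception at 23.8%. How many of all genes lay below it was not counted, so whether this sets the members apart was not tested. The table's own share was 21.1% in clusters of at least 10 tags and 20.8% in those of at least 100. Its median over genes with at least 100 tags was 22.4%. Neither call held in a beta-binomial test that allows for spread beyond counting error, where the adjusted p was 1 for both. In clusters of at least 10 tags, with an expected share of 21.1%, the adjusted p was 0.0793 for TFRC and 1 for SLC7A11. Of the 482 member clusters, the exact binomial test over 233546 clusters called 0 (26 in all, 0.0111%). The smallest adjusted p among them was 0.192, and the beta-binomial test also called 0. This test compares the libraries and not conditions.

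A wider list of 79 genes of the same pathways, drawn up from textbook knowledge, was set beside the members. It was chosen with earlier results of these data known, so its counts, also those by role, are a description. Of these, 50 had a cluster and 29 had more than 100 tags, while 39.9% of all genes with a cluster passed that mark. Among those with the most tags were BACH1 (3698), the heme-sensitive repressor of NRF2 targets, and ACSL4 (2925), which loads polyunsaturated fatty acids and is needed for ferroptosis. They were followed by the metal importer SLC39A14 (1919), the glyoxalase GLO1 (1834), the autophagy receptor SQSTM1 (1367), which binds KEAP1, and IREB2 (1331), an iron-regulatory protein that binds the hairpins shown above. PCBP1 had 726 tags, GPX8 687 and the ferritin autophagy receptor NCOA4 662. None of the 79 reached the 18859 tags of SLC7A11, and none passed TXNRD1.

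The list was also counted by role, with no test between the groups. Among genes with a cluster, more than 100 tags were found in 9 of 10 genes of iron handling (15 listed) and 3 of 4 iron regulators (4 listed). Of the further genes of glutathione synthesis and breakdown it was 0 of 2 (6 listed), with at most 50 tags in GGCT. NRF2 regulators had 4 of 6 (8 listed), NRF2 targets 2 of 4 (8 listed), with 189 tags in ME1 and 144 in NQO1, and the thioredoxin system 3 of 6 (8 listed). Glutathione use had 4 of 9 (13 listed), precursor supply 2 of 4 (6 listed), heme genes 1 of 2 (6 listed), and ferroptosis and stress genes 1 of 3 (5 listed). No cluster was listed for 29 genes. In glutathione metabolism and supply these included SLC1A1, CBS, GSS, CHAC1, GGT1, OPLAH, GPX1, GPX4, GSTP1 and GSTK1. In the redox group they included TXN2, TXNRD2, KEAP1, MAFF, PGD, TKT and OSGIN1. In iron, heme and ferroptosis they included SLC40A1, FTMT, TF, CP, HMOX2, BLVRA, BLVRB, FECH, LPCAT3 and AIFM2.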

How the data were processed

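Per the labels and the paper's methods, crosslinked fragments were poly(A) tailed and reverse transcribed with primers carrying a degenerate barcode, so that amplified copies count once. Mapping, collapsing to unique tags and clustering were run by the authors, on Galaxy. The submitters' processing notes name Novoalign and the build hg18. The deposited values are counts of tags in each cluster, given per replicate and as the authors' total, which is below the replicate sum in some clusters (the cause was not tested). Totals were used for gene sums and ranks (clusters of at least 10 tags), and replicate columns for normalised tags and for tests. Wilson intervals (95%) cover counting error only. The exact binomial and beta-binomial tests used scipy 1.17.1 (Python 3.11.15). On simulated data the exact test recovered 199 of 200 genes changed 4-fold in odds among 7712 (6 false calls), and 181 of 200 clusters among 233546 (0 false). The changed genes and clusters were drawn only from those with at least 100 tags, and the simulated counts held counting error alone. Recovery of fainter ones, and false calls under spread beyond counting error, were not simulated. UTR lengths, composition and hairpins came from GENCODE transcripts on GRCh37, matched by symbol for 7158 of 7712 genes. The members and lists were chosen with earlier results of these data known. Named genes were all members, their leading clusters, the first 10 and the unlisted genes of the wider list, and the 3 genes most like SLC7A11, except that some genes of the wider list are counted but not reported here by name. Alternatives covered tag minimum, count column, scaling, length, labels, merging, test model and leaving out each replicate.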

Additional observations from a re-analysis of the deposited data

How the results depend on the processing

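Of 202 alternative values, 100 stayed within their limits (the SD between replicates, or 1.5 times for counts and ranks), 102 moved and 0 reversed a direction. The share of SLC7A11 tags in 3′UTR alone was 64.8% over all deposited clusters, 73.9% in clusters of at least 30 tags and 83.3% when every label with 3′UTR entered. Leaving out each replicate gave values from 68.5% to 75.0%, and SLC7A11 ranked between 6 and 9 over all settings. Members with more than 100 tags numbered 3 to 9 with each replicate left out, and genes of the wider list 12 to 25, with the lower value from replicate 1 alone, where the same threshold is stricter by construction. At 30 tags 7 members passed, without SLC3A2 and FTL. Genes with an uneven split between the libraries numbered 6 under the beta-binomial test and 24 in clusters of at least 10 tags, and clusters 11 under the beta-binomial test. The density rank of SLC7A11 was 120 per kb of cluster and 20 per kb of transcript. No paired analysis between conditions was possible because both replicates belong to 1 group. Genes share both libraries, so their values can be compared within each library, and this was described without a test. The depth of replicate 1 limits the fainter genes, since FTL had 26 tags there.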

Other observations

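The antisense transcript SLC7A11-AS1 (Entrez gene 641364) lies on the plus strand, opposite SLC7A11. It had 167 clusters with 1964 tags, of which 84.9% were in introns, and its largest cluster held 101 tags. In clusters of at least 10 tags it had 0.296 tags per 1000 of replicate 1 and 0.270 of replicate 2. Its clusters ran from 139229916 to 139316508 on chromosome 4, and 23 of them, with 655 tags, lay within the span of SLC7A11. Those 23 were also the only plus strand clusters listed within that span. The table assigns clusters by strand, so these tags are not among those of SLC7A11.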
